A study of Mus musculus with 4 samples.

Results

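The AP-1 family genes described here are *Fos*, *Fosb*, *Fosl1*, *Fosl2*, *Jun*, *Junb*, *Jund*, *Atf3*, *Maff* and *Batf3*, taken by symbol and with no threshold on their values. They are 10 of the 24322 genes listed for mTFP-positive cells, which were sorted by FACS from mouse retina, and 5 of them reached a mean of at least 1 FPKM over the 4 libraries, the limit for the tests. FPKM, the fragments on a gene scaled to the length of its exons and to the mapped fragments of the library, is a level per length, so that genes can be compared within a library. AP-1 is a dimer of basic leucine zipper proteins in which a Fos protein joins a Jun protein, whereas Jun proteins also pair with each other or with ATF proteins. The dimers bind the TRE, TGACTCA, or the CRE, TGACGTCA. *Fos*, *Fosb*, *Jun*, *Junb* and *Atf3* are immediate early genes, whose RNA appears within minutes of growth factors, calcium entry, injury or the enzymatic dissociation of a tissue and decays quickly. In the retina, AP-1 genes are known to be switched on in Müller glial cells after damage.

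The libraries came from 2 control and 2 *Rax* iCKO mice, each library from 1 mouse. The control mice were Raxflox/WT and the *Rax* iCKO mice Raxflox/flox. All of them carried Rlbp1-CreERT2 and R26-CAG-LoxP-mTFP1, were labelled 129S6 and received tamoxifen at P4, with harvest at P14. The transgene drives a tamoxifen-dependent Cre recombinase from the promoter of *Rlbp1*, a gene of Müller glial cells and of the pigment epithelium, and Cre both deletes floxed *Rax* and turns on the teal fluorescent protein mTFP1, so the control cells had also lost 1 *Rax* allele where Cre acted. Retinas were digested with papain at 37 °C before the sort, and no library of undissociated retina was analysed here, so the AP-1 levels of the intact tissue are not given by these data. Control 1 and *Rax* iCKO 1 carry mouse numbers of one run (7984 and 7983), and control 2 and *Rax* iCKO 2 those of another (3911 and 3914).

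*Rax* itself, which encodes a homeodomain protein of retinal progenitors and Müller glial cells, was at 189 and 181 FPKM in the controls and 111 and 98.4 FPKM in the *Rax* iCKO libraries. The low values imply about 9270000 to 12710000 mapped reads per library, with control 1 the deepest. Müller glial markers were abundant, with *Rlbp1* at 1292 to 2616 FPKM, but markers of bipolar cells, retinal interneurons, also summed to between 3447 and 8795 FPKM over 10 genes. Libraries of one run resembled each other more (Pearson r of log2(FPKM + 1) across genes 0.970 in both runs) than libraries of one genotype (0.952 for the controls and 0.955 for *Rax* iCKO). The female-specific *Xist* RNA was at 24.5 and 21.2 FPKM in the controls and at 0.0119 and 0.00605 FPKM in the *Rax* iCKO libraries. The Y-linked *Eif2s3y* was at 43.7 FPKM in *Rax* iCKO 1 and listed at 0 in the other 3 libraries, so *Rax* iCKO 2 had almost no RNA of either gene. What goes with *Xist* cannot be told apart from the genotype.

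The promoters of *Fos*, *Jun*, *Junb* and *Atf3* are shown because the first 3 genes held most of the family's RNA and *Atf3* had the lowest ratio of *Rax* iCKO to control among the members detected in every library. Each sequence is the 250 bases before the RefSeq start on GRCm38.p6, 5′ to 3′ on the gene's strand, and capitals mark TGACG, the core of the CRE, or in *Jun* TGACATCA, a CRE variant. *Fos* lies at chr12:85473890-85477274 on the plus strand, *Jun* at chr4:95049036-95052222 on the minus strand, *Junb* at chr8:84976909-84978748 on the minus strand and *Atf3* at chr1:191170296-191183333 on the minus strand. Of the other members, *Fosb* lies at chr7:19302696-19310118, *Fosl1* at chr19:5447698-5455938, *Fosl2* at chr5:32136472-32157840, *Jund* at chr8:70697739-70700616, *Maff* at chr15:79346621-79359078 and *Batf3* at chr1:191098414-191108943.
Fos: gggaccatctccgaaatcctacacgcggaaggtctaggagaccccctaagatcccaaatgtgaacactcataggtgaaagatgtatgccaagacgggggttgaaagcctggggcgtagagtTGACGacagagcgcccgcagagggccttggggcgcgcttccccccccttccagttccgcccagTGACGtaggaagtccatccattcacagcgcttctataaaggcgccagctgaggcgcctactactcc
Jun: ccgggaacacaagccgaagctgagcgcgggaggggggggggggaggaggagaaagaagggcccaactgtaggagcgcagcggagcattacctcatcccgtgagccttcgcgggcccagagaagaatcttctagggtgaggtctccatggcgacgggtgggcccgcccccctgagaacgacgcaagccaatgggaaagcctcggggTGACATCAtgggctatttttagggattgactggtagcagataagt
Junb: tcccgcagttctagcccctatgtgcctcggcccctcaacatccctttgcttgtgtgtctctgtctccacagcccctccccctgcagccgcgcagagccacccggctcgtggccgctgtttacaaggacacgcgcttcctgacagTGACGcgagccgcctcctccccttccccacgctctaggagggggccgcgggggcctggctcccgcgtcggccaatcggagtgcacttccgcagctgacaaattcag
Atf3: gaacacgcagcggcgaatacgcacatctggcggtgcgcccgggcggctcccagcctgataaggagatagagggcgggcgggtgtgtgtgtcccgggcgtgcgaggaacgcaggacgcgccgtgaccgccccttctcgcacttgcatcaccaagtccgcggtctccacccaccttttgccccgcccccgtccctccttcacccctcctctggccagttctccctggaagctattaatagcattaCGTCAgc

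The CRE core was found at −129 and −66 in *Fos*, at −106 in *Junb* and at −7 in *Atf3* on the opposite strand, counted as the first base of the match from the start. The *Jun* variant begins at −45, and the TATAAA of *Fos* at −33. Both strands were searched in 32851 windows of this length. The windows of 9 members were in the table (*Fosl1* was not), *Maff* with 3 windows and the others with 1. TGACG occurred in 5 of the 9 members (*Fos*, *Fosb*, *Junb*, *Atf3* and *Maff*), in 6 of their 11 windows and in 17.8% of all windows. The full CRE, which contains TGACG, occurred in *Maff* alone among them, in 1 of the 11 windows and in 1.55% of all windows. TGACATCA occurred in *Jun* and *Maff*, in 2 of the 11 windows and in 2.93% of all windows. The TRE (4.46% of all windows) and TAATT, the letters of the predicted Rax site (25.03%), were found in none of the 9, which says only that these letters are not in these windows.

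*Fos* RNA was among the most abundant RNAs of the sorted cells. Among all listed genes it ranked 31 in control 1, 64 in control 2, 38 in *Rax* iCKO 1 and 51 in *Rax* iCKO 2, and it held 62.3%, 64.1%, 61.3% and 70.2% of the summed FPKM of the 10 members. The family as a whole summed to 2038 and 1504 FPKM in the controls and to 1516 and 1245 FPKM in the *Rax* iCKO libraries, and these groups overlapped. *Jun* held 16.2% to 23.1% of that sum, *Junb* 10.5% to 15.4% and *Jund* 2.45% to 3.61%. By mean FPKM the order was *Fos*, *Jun*, *Junb*, *Jund*, *Fosb*, *Atf3*, *Fosl2*, *Batf3*, *Maff* and *Fosl1*. The range of *Fos* lay above that of *Jun*. The ranges of *Jun* and *Junb* overlapped, though *Jun* was above *Junb* in 4 of 4 libraries. From *Junb* to *Atf3* no neighbouring ranges overlapped, and below *Atf3* all of them did. The proportion of the Jun proteins' genes to each other was steady for *Jund* and *Jun* (0.151 to 0.174 FPKM of *Jund* per FPKM of *Jun*). It was not steady for *Junb* and *Jun*, from 0.485 in *Rax* iCKO 1 to 0.906 in control 2. The ratio of *Fos* to *Jun* went from 2.65 in *Rax* iCKO 1 to 4.34 in *Rax* iCKO 2.

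**Figure D1:**
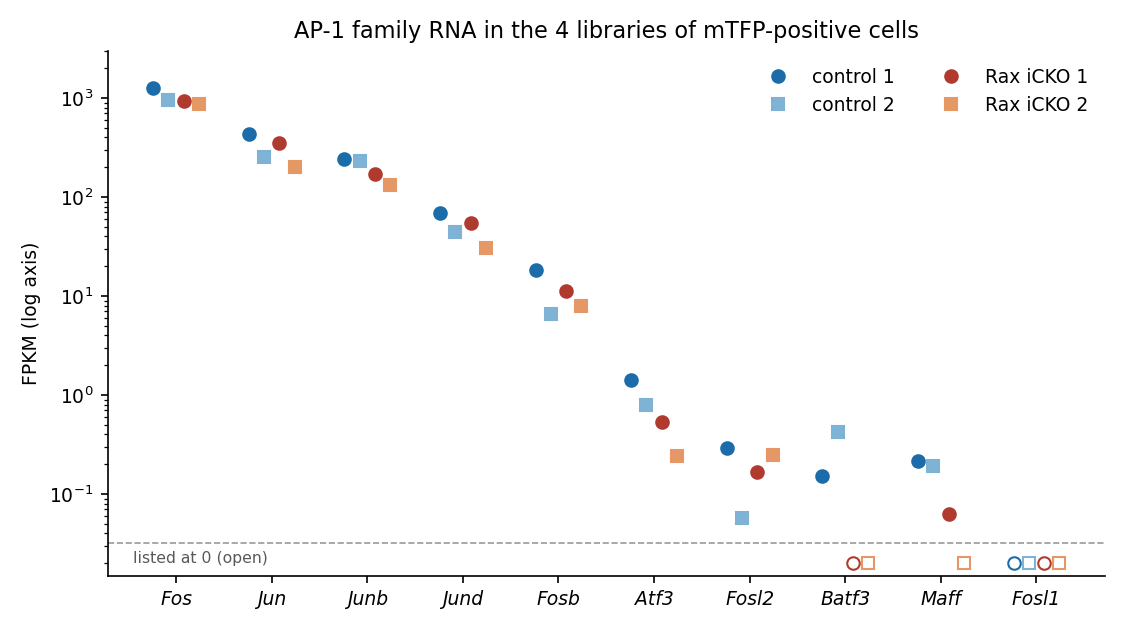
FPKM (log axis) of the 10 AP-1 family genes in each of the 4 libraries, ordered by mean, with circles for control 1 and *Rax* iCKO 1, squares for control 2 and *Rax* iCKO 2, and open symbols under the dashed line for values listed at 0. *Fos* sits between 874 and 1269 FPKM, and *Fosl1* is listed at 0 in every library.

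Libraries were next compared by genotype. The 5 AP-1 genes tested were all lower on average in *Rax* iCKO as deposited and with quantile normalization or equal medians. After a division by Müller glial markers, given last, which added 0.42 to the log2 difference of every gene, 2 of them were lower, or 1 with *Apoe* left out of the markers. Their FPKM as deposited had a median log2 fold change of −0.33, which was −0.10 without control 1, −0.71 without control 2, −0.73 without *Rax* iCKO 1 and −0.01 without *Rax* iCKO 2. Over the 12363 genes tested it was −0.00, and 50.8% were lower. None of the 5 reached an adjusted p of 0.05 in limma with Benjamini-Hochberg adjustment, and 1 of them, *Junb*, had an unadjusted p under 0.05, as did 1.60% of all genes tested in that direction. In all, limma called 1 gene higher (0.00809%) and 2 lower (0.0162%) at an adjusted p of 0.05. For *Fos* and *Junb*, 2 of the 5, the higher *Rax* iCKO library was below the lower control, and so it was for 14.1% of all genes tested and for 22.3% of the 1064 genes with a mean of at least 100 FPKM. Within both runs of mouse numbers *Rax* iCKO was lower for 4 of the 5, against 31.7% of all genes tested. Without control 1, 3 of the 5 were lower. With 2 mice against 2, an exact two-sided permutation test cannot give a p below 0.333, and RNA of whole sorted populations cannot tell fewer cells of a type from less RNA per cell.

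Among the Fos members, *Fos*, which encodes the c-Fos protein, was at 1269 and 964 FPKM in the controls and at 929 and 874 FPKM in *Rax* iCKO. The groups did not overlap, but control 2 was closer to *Rax* iCKO 1 than to control 1. The means were 1116 ± 216 FPKM and 902 ± 38.8 FPKM (SD, n = 2 each), the log2 fold change was −0.29 (SE 0.33, 95% interval −1.11 to 0.52) and the adjusted p was 0.9999 (limma, Benjamini-Hochberg). The fold change was −0.10 without control 1, −0.49 without control 2 and −0.02 with quantile normalization. Within the runs the ratio of *Rax* iCKO to control was 0.732 and 0.907. *Fosb*, whose protein and its shorter form ΔFosB last longer than c-Fos, was at 18.5 and 6.65 FPKM in the controls and at 11.1 and 7.86 FPKM in *Rax* iCKO. Its groups overlapped, and the runs went opposite ways, with ratios of 0.602 and 1.18. The log2 fold change of *Fosb* was −0.24 (SE 0.46), and it was 0.44 without control 1, −0.91 without control 2, −0.46 without *Rax* iCKO 1 and −0.01 without *Rax* iCKO 2. *Fosl2*, which encodes Fra-2, was at 0.291 and 0.0570 FPKM in the controls and at 0.168 and 0.246 FPKM in *Rax* iCKO, with overlapping groups. *Fosl1*, which encodes Fra-1, was listed at 0 in all 4 libraries. The RNA of the Fos members was thus almost wholly *Fos*, at 68.6 to 145 times the FPKM of *Fosb* in the same library.

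Among the Jun members, *Junb*, which encodes a Jun protein that often restrains c-Jun and has a short RNA of 1 exon, differed most. *Junb* was at 244 and 232 FPKM in the controls and at 170.0 and 131 FPKM in *Rax* iCKO, so each *Rax* iCKO library was below each control, by more than the controls differed. Its means were 238 ± 8.77 FPKM and 150.4 ± 27.7 FPKM (SD, n = 2 each), a ratio of 0.632, with ratios of 0.697 and 0.565 within the runs. The log2 fold change was −0.67 (SE 0.24, 95% interval −1.26 to −0.08). In limma its unadjusted p was 0.0326 and its adjusted p 0.9999, so *Junb* did not pass the test.

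*Jun*, which encodes c-Jun and also has 1 exon, was at 436 and 256 FPKM in the controls and at 350.4 and 201 FPKM in *Rax* iCKO. The groups overlapped, since each run had its own level, but within the runs the ratio was nearly the same, 0.803 and 0.787. Its log2 fold change was −0.33 (SE 0.39, 95% interval −1.29 to 0.63), and it was 0.05 without control 1, −0.71 without control 2, −0.73 without *Rax* iCKO 1 and 0.07 without *Rax* iCKO 2. *Jund*, a Jun gene that is expressed in most resting cells, was at 68.3 and 44.5 FPKM in the controls and at 54.7 and 30.5 FPKM in *Rax* iCKO. These groups overlapped too, with ratios of 0.801 and 0.685 within the runs and a log2 fold change of −0.42 (SE 0.35, 95% interval −1.28 to 0.44). It was −0.12 without control 1, −0.73 without control 2, −0.84 without *Rax* iCKO 1 and −0.01 without *Rax* iCKO 2. The run with 7983 and 7984 exceeded the other by 0.90 on the log2(FPKM + 1) scale for *Fosb*, 0.78 for *Jun*, 0.72 for *Jund*, 0.24 for *Fos* and 0.23 for *Junb*. For *Jun*, *Jund* and *Fosb* the difference between runs was therefore larger than that between genotypes, and for *Fos* and *Junb* it was smaller.

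**Figure D2:**
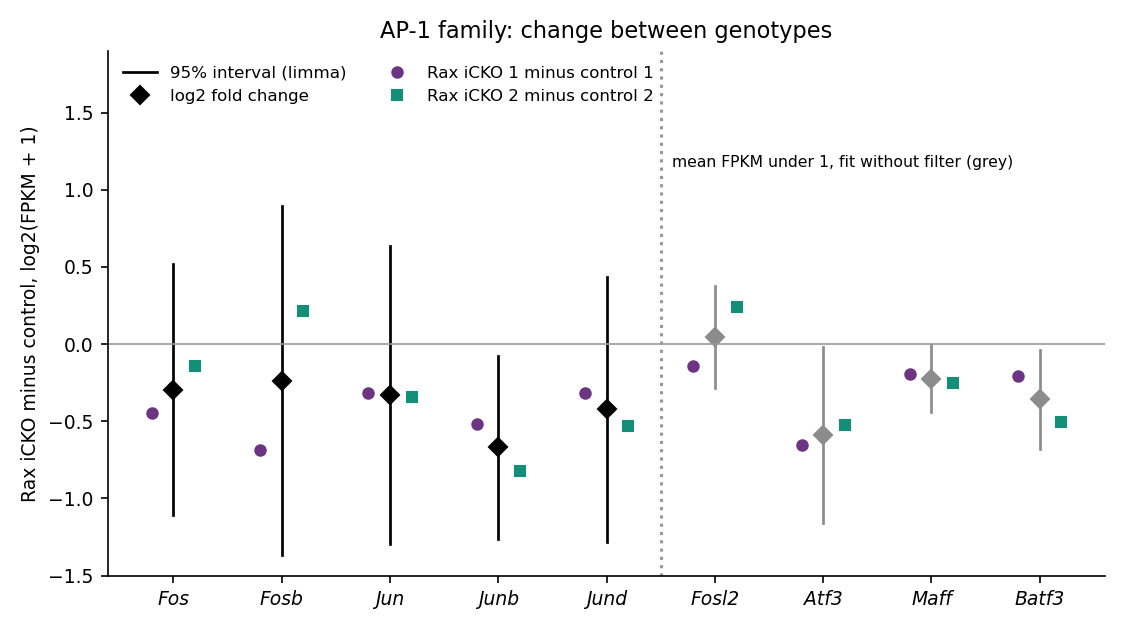
Difference between *Rax* iCKO and control on the log2(FPKM + 1) scale for the 9 AP-1 family genes detected, as the limma estimate with its 95% interval (diamonds, grey where the mean was under 1 FPKM, of which *Batf3* was detected in the controls alone) and as the difference within each run of mouse numbers (purple circles and green squares). Only *Junb* among the genes with a mean of at least 1 FPKM has an interval below 0, and the runs of *Fosb* lie on opposite sides of 0. The intervals of *Batf3* and *Maff* are not read as tests, since *Batf3* entered the fit through the controls alone and *Maff* through 3 libraries.

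The remaining members were near the detection limit. *Atf3*, which encodes a stress-induced partner and often a repressor of AP-1 sites, was at 1.42 and 0.789 FPKM in the controls and at 0.537 and 0.242 FPKM in *Rax* iCKO. The groups did not overlap, the means were 1.10 ± 0.443 FPKM and 0.389 ± 0.209 FPKM (SD, n = 2 each), and the ratios within the runs were 0.379 and 0.307. These values rest on about 32 and 13 reads in the controls and 9 and 4 reads in *Rax* iCKO, whereas *Fos* rests on about 15510 to 30770 reads. In a limma fit without the limit on FPKM, *Atf3* had a log2 fold change of −0.59 (SE 0.22) on the log2(FPKM + 1) scale, which understates changes of low genes, with an unadjusted p of 0.0454 and an adjusted p of 0.995. Of all genes in that fit 2.07% were lower with an unadjusted p under 0.05. *Maff*, which encodes a small Maf protein without a transactivation domain, was at 0.216 and 0.193 FPKM in the controls, at 0.0631 FPKM in *Rax* iCKO 1 and listed at 0 in *Rax* iCKO 2. *Batf3*, which encodes an AP-1 partner of dendritic cells and T cells, was at 0.154 and 0.422 FPKM in the controls, about 1 and 2 reads, and listed at 0 in both *Rax* iCKO libraries. The genes *Batf3* and *Atf3* lie 61352 bases apart on chromosome 1. *Batf3* entered the fit without a limit through the controls alone and *Maff* through 3 libraries, so no p is given for them.

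The genes that act on AP-1 were taken from lists. Of the other leucine zipper partners, 12 of 16 were tested, 4 lower and 8 higher, with a median log2 fold change of 0.07 and 0 adjusted or unadjusted p-values under 0.05 in limma. The median was −0.12 without control 2 and −0.09 without *Rax* iCKO 1. *Atf4*, *Ddit3* and *Atf2*, the most abundant of them, had overlapping groups. *Nfe2l2*, which encodes the antioxidant regulator Nrf2, was at 15.6 and 12.2 FPKM in the controls and at 11.1 and 7.47 FPKM in *Rax* iCKO (log2 fold change −0.55, SE 0.28). It was the only partner whose groups did not overlap, 1 of the 12 tested. Of all genes tested, 14.1% had both *Rax* iCKO libraries below both controls and 15.4% had both above.

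The 20 genes of the ERK, JNK and p38 cascades, which lead to Jun proteins and to the factors on the *Fos* promoter, encode kinases except for the JNK scaffold genes *Mapk8ip1* and *Mapk8ip3*. They split evenly, with 10 lower and 10 higher and a median of 0.00, which was −0.12 to 0.19 when 1 mouse was left out. *Mapk8*, which encodes JNK1, the kinase named for c-Jun, was at 2.51 and 3.28 FPKM in the controls and at 3.98 and 4.33 FPKM in *Rax* iCKO (log2 fold change 0.41, SE 0.27), and *Map2k1* and *Map3k12* also had both *Rax* iCKO libraries above both controls while *Map3k1* had both below. These 3 of 20 above and 1 of 20 below stand against 15.4% and 14.1% of all genes tested. Of the 16 genes for SRF, ternary complex factors, CREB and their kinases and coactivators, which drive *Fos* transcription, 4 were lower and 12 higher, with a median of 0.11, which was −0.11 without control 2, 0.01 without *Rax* iCKO 1 and 0.26 without control 1. *Elk3* was below the controls in both *Rax* iCKO libraries, and *Rps6ka5* (MSK1) and *Camk4* were above them. This 1 of 16 below and 2 of 16 above stand against the same 14.1% and 15.4%. Neither list held a gene with an unadjusted p under 0.05.

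The genes that limit AP-1 went both ways. Of the 12, 6 were lower and 6 higher within both runs, against 31.7% and 30.7% of all genes tested. *Zfp36*, which encodes tristetraprolin, a protein that destabilizes RNAs with AU-rich elements, was at 67.6 and 55.8 FPKM in the controls and at 37.5 and 24.0 FPKM in *Rax* iCKO (log2 fold change −1.01, SE 0.27, unadjusted p 0.0101, adjusted p 0.9999 in limma). Its relative *Zfp36l1* and *Dusp1*, a phosphatase of JNK and p38, were also below the controls in both *Rax* iCKO libraries, with *Dusp1* at 843 and 740 FPKM in the controls and at 536 and 562 FPKM in *Rax* iCKO. The ubiquitin ligase genes were mixed, with *Ddb1* above the controls (log2 fold change 0.21, SE 0.23) and *Det1* below them (−0.35, SE 0.28). Over the list, both *Rax* iCKO libraries were below both controls for 4 of the 12 genes and above them for 4. The shares of all genes tested were 14.1% and 15.4%. *Zfp36* and *Dusp1* are themselves immediate early genes and are counted again in the list of those.

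Of 36 genes known as AP-1 targets, 21 were tested, 15 lower and 6 higher, with a median of −0.12 that was 0.02 without control 1, −0.05 without *Rax* iCKO 2 and −0.20 without *Rax* iCKO 1, and 4 were below (14.1% of all genes tested) and 2 above (15.4%) the controls in both *Rax* iCKO libraries. *Ccnd1*, which encodes cyclin D1, was at 16.5 and 11.8 FPKM in the controls and at 8.19 and 6.41 FPKM in *Rax* iCKO (log2 fold change −0.86, SE 0.27), and *Nqo1*, an antioxidant enzyme gene, had a log2 fold change of −0.63 (SE 0.25). These were the 2 targets, both lower, with an unadjusted p under 0.05 in limma, against 1.60% of all genes tested, and 0 had an adjusted one. *Fn1*, which encodes fibronectin, had one of 0.52 (SE 0.32). Of the 36 targets, 7 were listed at 0 in all 4 libraries, *Mmp3*, *Mmp10*, *Mmp13*, *Plau*, *Il6* and *Fasl* among them. Being at 0 throughout was not particular to targets, since 17865 of all 24322 genes listed had a mean FPKM over 0. Other targets were abundant, with *Mt1* at 203 to 365 FPKM and *Mmp14* at 69.7 to 119 FPKM.

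Immediate early genes outside the family were also mostly lower. Of 34 genes that tissue dissociation is known to induce, 28 were tested and 23 were lower, with a median log2 fold change of −0.48, or −0.30 without control 1 and −0.64 without control 2. For 18 of the 28 the *Rax* iCKO libraries were both below the controls, against 14.1% of all genes tested, and for 0 both above, against 15.4%. In limma 8 were lower with an unadjusted p under 0.05, against 1.60% of all genes tested, and 0 had an adjusted one. The largest changes were in *Socs3*, an inhibitor of JAK/STAT signaling, at 29.1 and 28.6 FPKM in the controls and 9.27 and 6.80 FPKM in *Rax* iCKO, in *Cebpd* (log2 fold change −1.28, SE 0.24) and in *Ier3* (−1.14, SE 0.31). *Socs3* and *Cebpd* were singled out by the study on these libraries, so they are not independent evidence of the list's direction. The list was written with earlier results of these data known and carries no test.

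**Figure D3:**
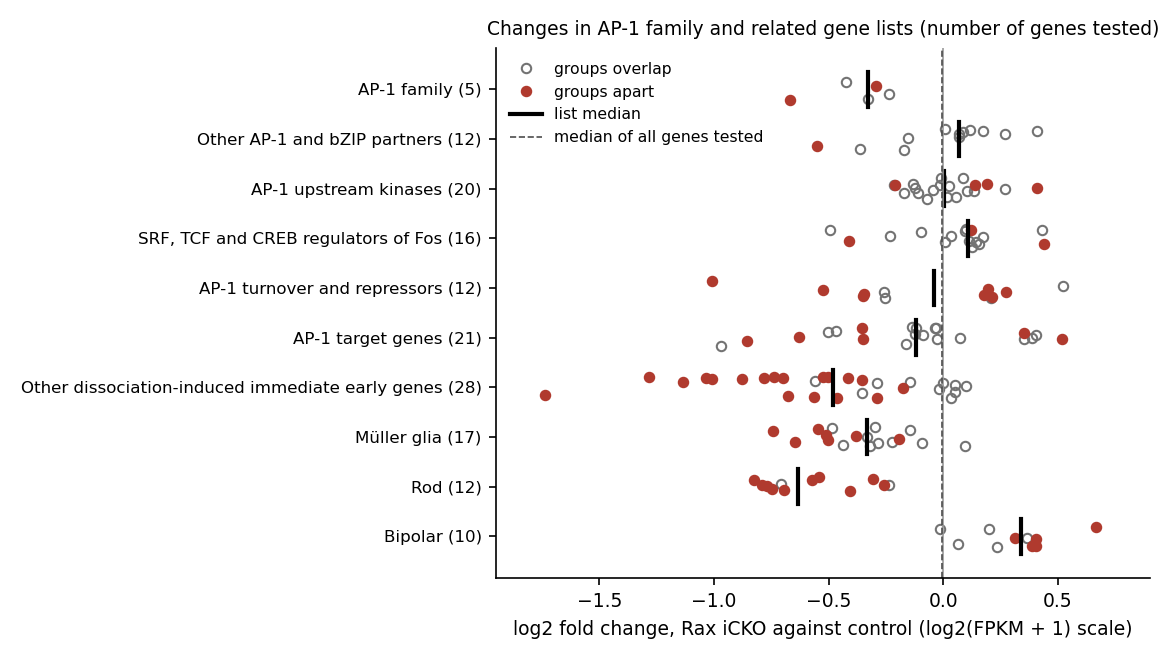
Log2 fold change of each gene tested in the AP-1 family, in 6 lists of related genes and in the markers of Müller glial cells, rods and bipolar cells, with filled points where the groups did not overlap and black bars at list medians. The AP-1 family (−0.33), the other immediate early genes (−0.48), Müller glial (−0.33) and rod markers (−0.63) have medians below that of all genes, and bipolar markers lie above (0.34).

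Cell type markers were compared in the same way. In limma, 0 of the Müller glial, rod, bipolar and microglial markers had an adjusted p under 0.05. Unadjusted p-values under 0.05 were found for 4 rod markers, all lower, for 1 bipolar marker, higher, and for 0 Müller glial and 0 microglial markers. The summed FPKM of 17 Müller glial markers was 20713 and 17548 in the controls and 14084 and 14358 in *Rax* iCKO, with 16 of the 17 lower (median log2 fold change −0.33) and 7 below the controls in both *Rax* iCKO libraries, against 14.1% of all genes tested and 22.3% of those with a mean of at least 100 FPKM. Their median was −0.10 without control 1 and −0.60 without control 2. All 12 rod markers were lower, from 2155 and 2162 FPKM to 1515 and 1328 FPKM in sum, with a median of −0.63, or −0.33 without *Rax* iCKO 2. For 10 of the 12 both *Rax* iCKO libraries were below both controls, against 14.1% of all genes tested. Of 10 bipolar markers 9 were higher, though their sums overlapped, at 3447 and 8795 FPKM in the controls and 4753 and 7378 FPKM in *Rax* iCKO, and their median of 0.34 was 0.05 without control 1 and 0.62 without control 2. For 5 of these 10 both *Rax* iCKO libraries were above both controls, against 15.4% of all genes tested. The 9 microglial markers tested had no steady direction, with a median of −0.30 that was −1.36 without *Rax* iCKO 1 and 0.66 without *Rax* iCKO 2, and the sum over the whole list of 10 went from 19.1 FPKM in *Rax* iCKO 2 to 106 FPKM in *Rax* iCKO 1. The part of these in the AP-1 values was not tested.

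Each gene's FPKM was also divided by the summed FPKM of the 17 Müller glial markers, a scale chosen after the values were seen. Because the marker sum was lower in *Rax* iCKO, the division added 0.42 to the log2 difference of every gene, and the median of all genes tested became 0.42. On this scale 49.4% of all genes tested had both *Rax* iCKO libraries above both controls and 1.59% had both below, so overlap or a change of sign there follows in part from the scale itself. *Fos* was then at 61.3 and 54.9 FPKM per 1000 FPKM of markers in the controls and at 66.0 and 60.9 in *Rax* iCKO, and *Junb* at 11.8 and 13.2 in the controls and at 12.1 and 9.11 in *Rax* iCKO. The groups overlapped for each of the 5 AP-1 genes tested. With *Apoe*, the most abundant marker, left out of the sum, *Fos* was above the controls in both *Rax* iCKO libraries, as were 56.8% of all genes tested, and the other 4 overlapped. *Atf3* was below the controls in both *Rax* iCKO libraries, at 0.0683 and 0.0449 in the controls and 0.0381 and 0.0168 in *Rax* iCKO. Of the 28 other immediate early genes, 10 were below and 5 above the controls in both *Rax* iCKO libraries, with a median log2 difference of −0.07, and without *Apoe* 8 were below and 6 above, against 1.11% and 56.8% of all genes tested.

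**Figure D4:**
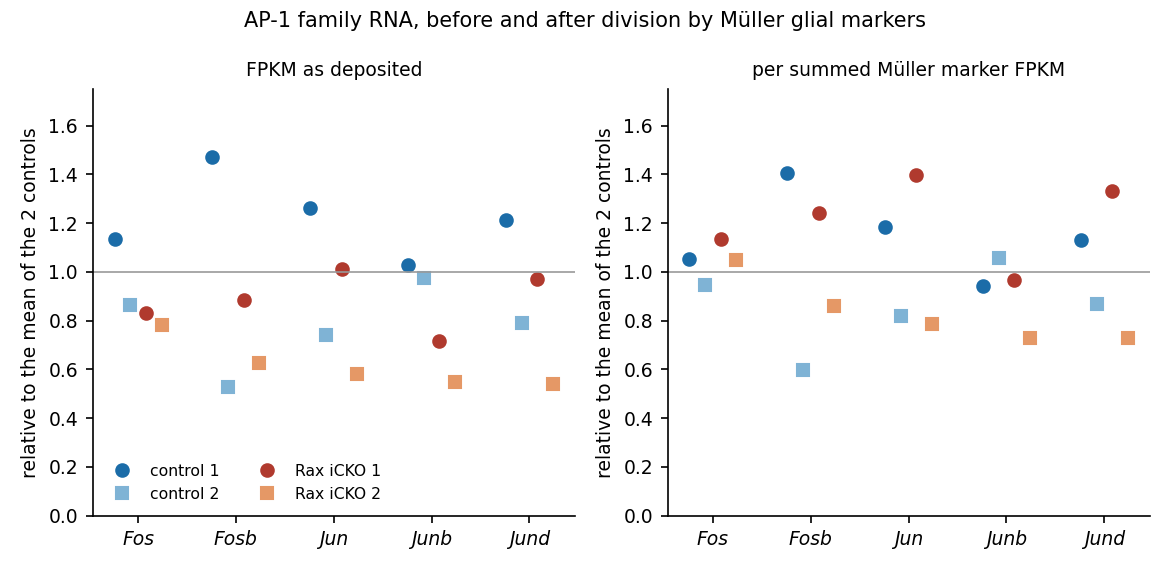
The 5 AP-1 family genes tested, relative to the mean of the 2 controls, as deposited FPKM (left) and after division by the summed FPKM of 17 Müller glial markers (right), with 1 symbol per library. On the left *Fos* and *Junb* are below the controls in each *Rax* iCKO library, and on the right, where the log2 difference of every gene is raised by 0.42, the groups of each gene overlap.

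Genes with a like profile over the 4 libraries were then sought, with *Jund* not part of the rule. Among 9169 genes with a mean of at least 5 FPKM, *Sorbs3*, *Plod1*, *Mxra7*, *Pdgfc* and *Tor1b* lay nearest to the mean centred profile of *Fos*, *Fosb*, *Jun* and *Junb*, at Euclidean distances of 0.0327 to 0.0598 on the log2(FPKM + 1) scale. *Plod1*, for example, was at 109 and 69.4 FPKM in the controls and 75.9 and 55.7 FPKM in *Rax* iCKO. In that profile control 1 was highest and *Rax* iCKO 2 lowest, with control 2 below *Rax* iCKO 1. It is a mean over genes whose groups overlapped (*Fosb* and *Jun*) and genes whose groups did not (*Fos* and *Junb*).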

How the data were processed

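RNA-seq was performed on mTFP-positive cells of 2 control and 2 *Rax* iCKO mice (P4→P14). The authors aligned single-end reads to mm10 (TopHat, Bowtie2, SAMtools) and deposited FPKM from the Cufflinks suite for each gene in each library. The submitters' processing notes name TopHat2 2.1.1, Bowtie2 2.2.8, SAMtools 0.1.18 and Cuffdiff 2.2.1, and the paper's methods give other versions of the first 3. RNA was isolated with TRIzol LS by those methods, but with a column kit, before full-length cDNA amplification, by the labels. Strand use in counting is not given in the sources used here. FPKM is relative to each library's own reads, so abundant genes shift the others.

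Groups came from the labels. Genotypes were compared in R 4.3.3 with limma 3.58.1 (eBayes with a trend, two-sided) on log2(FPKM + 1), over the 12363 genes that averaged at least 1 FPKM, with Benjamini-Hochberg adjustment. Fold changes are on that scale. The p-values rest on the spread between 2 mice per group, which limma moderates with the spread of the other genes. On simulated data with a log2 fold change of 2 given to 200 of 12363 genes, limma called 195 of them and 21 others. That change was larger than any AP-1 estimate here, and the simulated libraries had no runs. The simulation therefore does not show what limma finds at the sizes seen here. Read numbers were estimated from the steps of low FPKM over 370 genes, and are approximate. Promoters came from RefSeq (GRCm38.p6).

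The members and the gene lists were chosen with earlier results of these data known. Named genes are the 10 members, *Rax*, in each list the 3 largest changes with groups that did not overlap, in the lists of regulators also the 3 most abundant, and the 5 nearest profiles. A few genes that this rule or the lists would name are not reported here. Markers of cones, amacrine and horizontal cells, ganglion cells, endothelium, astrocytes and pigment epithelium had medians of −0.09, −0.02, −0.33, −0.00, −0.47 and 0.32, over 2 to 6 genes tested. With 1 mouse left out, in the same order, they ran from −0.18 to 0.09, −0.55 to 0.51, −0.62 to −0.04, −0.50 to 0.38, −0.54 to −0.38 and 0.04 to 0.61. The alternatives were quantile normalization, medians set equal, a pseudocount of 0.1, a limit of 5 FPKM or none, a fit with no trend, a block for the runs, each mouse left out and, added later, division by Müller glial markers, also without *Apoe*.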

Additional observations from a re-analysis of the deposited data

How the results depend on the processing

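*Fos*, *Junb* and *Jund* stayed lower in *Rax* iCKO under the 11 alternatives other than the division by Müller glial markers, with log2 fold changes of −0.49 to −0.02 for *Fos*, −0.86 to −0.48 for *Junb* and −0.84 to −0.01 for *Jund*. Quantile normalization gave *Fos* −0.02 and *Jun* −0.15. *Jun* ranged from −0.73 to 0.07 and *Fosb* from −0.91 to 0.44. Under the division by Müller glial markers, which adds 0.42 to every gene, the log2 differences were 0.13 for *Fos*, 0.18 for *Fosb*, 0.09 for *Jun*, −0.25 for *Junb* and −0.01 for *Jund*. The median of the AP-1 genes tested was −0.73 to −0.01 when 1 mouse was left out. The number of them that were lower was 8 of 9 without the filter, because 4 more genes entered, *Batf3* through the controls alone, and 3 to 5 of 5 without 1 mouse. The labels do not say that a run of mouse numbers marks a litter or day, so the runs were not used as pairs in the tests and the values within runs are descriptions. With the replicate block by run, 24 genes were higher and 47 lower at an adjusted p of 0.05, and the unadjusted and adjusted p of *Junb* were 4.45e-04 and 0.0564 (adjusted p over the alternatives 0.0564 to 1). The unadjusted p of *Junb* was 0.0989 with quantile normalization and 0.0662 to 0.311 without 1 mouse. With the block the unadjusted p was 0.0336 for *Jun* and 0.0111 for *Jund*, with adjusted p of 0.275 and 0.171. The deviations of control 1 and of *Rax* iCKO 1, the libraries of one run, correlated at 0.50 across the genes tested. Over all genes, no filter and a mean FPKM of at least 5 gave 0 higher and 0 lower, quantile normalization 2 higher and equal medians 3 higher. Leaving out 1 mouse gave 7 to 14 higher and 5 to 12 lower, in fits in which the lone mouse is assumed to vary like the others. Of 173 list medians over the lists and alternatives, 17 changed sign. The causes were not tested. Depth limits *Atf3*, *Fosl2*, *Maff* and *Batf3*, which rest on few reads.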
